A study of Mus musculus with 12 samples.

Results

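Islets of mice whose insulin-producing beta cells had lost the clock gene Bmal1 were compared 4 wk and 24 h after injury with streptozotocin (STZ). The comparison sets 4 of the 12 RNA sequencing libraries of the study against each other, 2 at each time, and all 12 entered the fit and shared 1 estimate of the spread. They were chosen by the labelled genotype, treatment and time, with no measured value, and all 17411 genes that passed a filter on low counts were tested. The knockout mice carried floxed Bmal1 alleles together with a Cre recombinase fused to the oestrogen receptor and driven by the rat insulin promoter (Bmal1fl/flRIPCreERT/+). Their islets were taken 4 wk after a submaximal dose of STZ (2 libraries, A and B), 24 h after STZ (2 libraries) or 24 h after citrate buffer as vehicle (2 libraries). Control mice carried the floxed alleles without the Cre transgene (Bmal1fl/fl), with 2 libraries each at 4 wk and 24 h after STZ and at 24 h after vehicle. Floxed alleles were therefore shared by all groups, and Cre was present in knockout libraries alone, so that loss of Bmal1 and presence of the transgene cannot be told apart. The age and number of the mice were not given in the labels, and no vehicle library at 4 wk was analysed here, so time after STZ and age of the mice cannot be told apart either.

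Bmal1 (gene symbol Arntl) is the core activator of the circadian clock. With CLOCK or NPAS2 it binds E-box sequences and drives Per, Cry, Nr1d1, Dbp and other rhythmic genes, some of which repress it in turn. In beta cells the clock is known for its part in glucose-stimulated insulin secretion, mitochondrial function and antioxidant defence. STZ is a glucose analogue that enters beta cells through the glucose transporter GLUT2, alkylates their DNA and kills them, and immune cells follow the damage into the islet.

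Total estimated counts were 101772241 to 127207523 per library. Libraries A and B of a group differed by more than sampling noise (chi-square over degrees of freedom 24.6 to 467.5), so none was a copy of another. No label states whether A and B are separate mice, so p-values describe library-to-library spread, part of which may be technical. Expression is given as CPM, counts scaled to a common total after normalisation of library sizes, without correction for gene length. The label calls the islets predominantly beta cells. The 26 genes of beta-cell identity took 5.10 and 8.37% of all counts in knockout islets 4 wk after STZ, 2.10 and 2.33% at 24 h and 16.1 and 11.1% in knockout islets given vehicle. Over the same libraries, 30 acinar genes (digestive enzymes of the exocrine pancreas) took 16.4 and 19.6% at 4 wk, 31.1 and 32.6% at 24 h and 8.96 and 7.82% after vehicle. In controls the acinar list took 14.0 and 15.7% at 4 wk, 18.2 and 18.7% at 24 h and 26.9 and 25.8% after vehicle, and the beta-cell list 11.5 and 16.4%, 13.0 and 13.8% and 8.59 and 7.51%. The acinar share exceeded the beta-cell share in both libraries of each group other than knockout vehicle and control 4 wk. In bulk RNA fewer cells of a type and less RNA per cell cannot be told apart.

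Between 24 h and 4 wk after STZ, knockout islets changed over a large part of the transcriptome. At 4 wk 3512 genes were higher (20.2% of those tested) and 2699 lower (15.5%) than at 24 h, by edgeR's quasi-likelihood test at a Benjamini-Hochberg adjusted p under 0.05. Of these, 1800 rose and 1762 fell by more than 2-fold. Most genes of the beta-cell, granule and small intestine lists rose. Most genes of the macrophage, NF-kB, interferon, acute phase, acinar and matrix lists fell. Leaving out 1 library at 24 h lowered the count of 6211 changed genes to 4055 without A and 3891 without B. A fit of the 4 libraries alone called 4069 genes and turned the split round, to 1854 higher and 2215 lower. The split depends on the scaling. It was 5285 higher and 2074 lower with total counts, where the median of all genes was 0.33 on the log2 scale, against 0.10 in the comparison as reported. With DESeq2's size factors it was 2996 higher and 3047 lower. An offset for the GC content of genes gave 9079 changed genes, 4626 higher and 4453 lower. The gap between libraries A and B correlated with GC content in both groups (-0.80 at 4 wk and -0.47 at 24 h). The split was 534 higher and 12238 lower, with a median of -1.18, when libraries were scaled on 17 genes of secretory granules shared by all islet endocrine cells, which holds those genes level. Every direction below is thus relative to the bulk of all islet RNA, and rises smaller than that shift turn negative on the endocrine scale.

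Beta-cell identity genes were higher at 4 wk than at 24 h. Of 26 tested, 21 rose and the other 5 did not pass, with a median log2 fold change of 1.1 against 0.10 over all genes tested, and of -0.19 on the endocrine scale. Iapp, which encodes the amyloid peptide amylin secreted with insulin, had 11317 and 9860.3 CPM at 4 wk, against 3652 and 3421 CPM at 24 h (log2 fold change 1.58, SE 0.11, adjusted p = 1.76e-05). Slc2a2, the glucose transporter GLUT2 through which STZ enters the beta cell, had 499 and 440.3 CPM at 4 wk, against 154 and 142 CPM at 24 h (log2 fold change 1.67, SE 0.12, adjusted p = 2.47e-05). G6pc2, the islet glucose-6-phosphatase that sets the glucose threshold of insulin secretion, had 1776 and 1477 CPM at 4 wk, against 479 and 459.6 CPM at 24 h (log2 fold change 1.79, SE 0.14, adjusted p = 2.93e-05). In each of these genes both libraries at 4 wk lay about 3-fold above both at 24 h, and below 19046 and 19196 CPM for Iapp, 585 and 668 CPM for Slc2a2 and 2291 and 2734 CPM for G6pc2 in knockout vehicle islets.

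The insulin genes rose less evenly. Ins1 (chr19:52264323-52265458, mm10), one of the mouse's insulin genes, had 10368 and 18960.5 CPM at 4 wk, against 5125 and 5698 CPM at 24 h (log2 fold change 1.44, SE 0.33, adjusted p = 0.0088). Ins2, the mouse counterpart of human insulin, had 22211 and 48540.1 CPM at 4 wk, against 13081 and 15342 CPM at 24 h (log2 fold change 1.32, SE 0.41, adjusted p = 0.0343). The libraries did not overlap between the times, but those at 4 wk stood about 2-fold apart. Without library A at 24 h the adjusted p of Ins1 was 0.0658. The call of Ins2 was lost without either library at 24 h (adjusted p 0.167 without A and 0.114 without B) and without library B at 4 wk, where the log2 fold change was 0.64. Mafa, a transcription factor of the insulin gene in mature beta cells, had 0.284 and 2.88 CPM at 4 wk, against 0.195 and 0.612 CPM at 24 h, and these groups overlapped (log2 fold change 1.97, SE 1.16, adjusted p = 0.226).

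**Figure D1:**
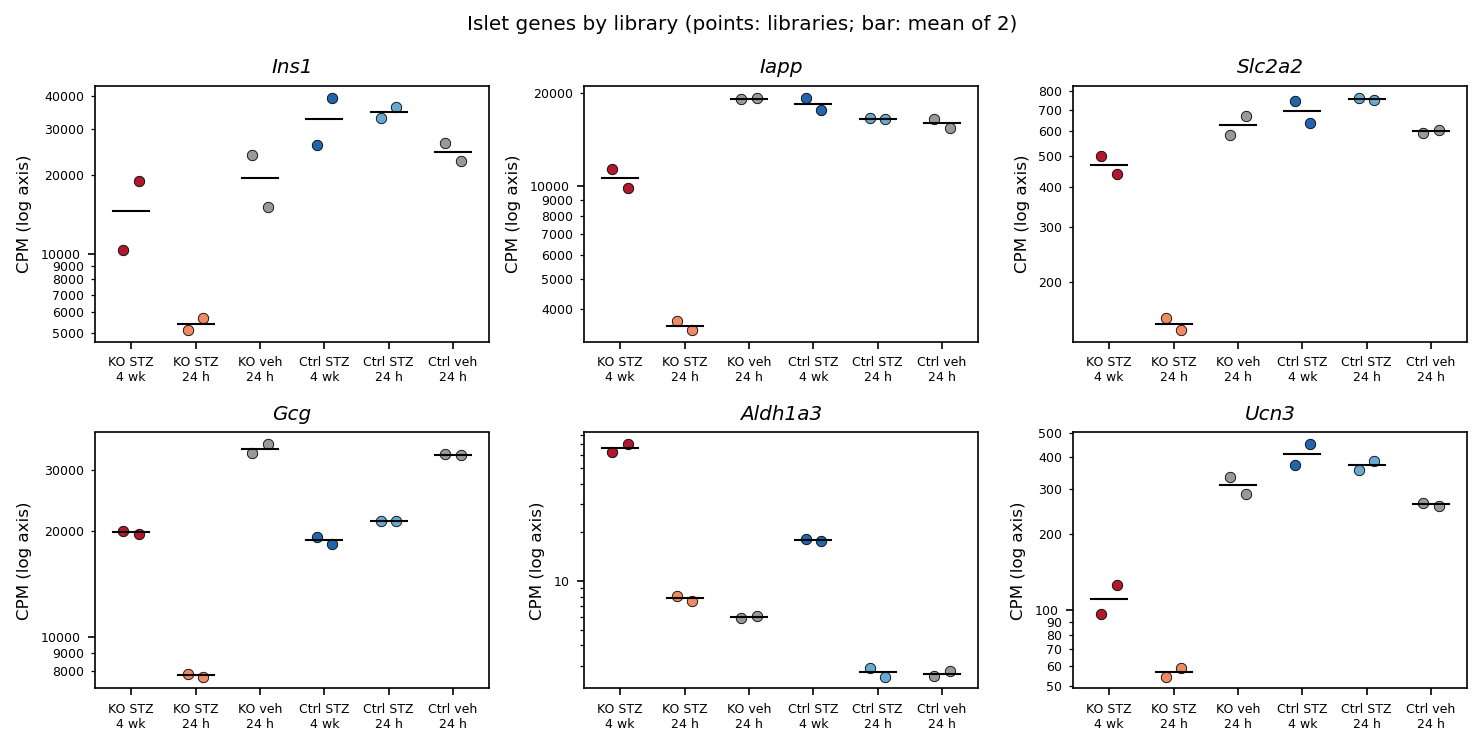
Expression of 6 islet genes in all 12 libraries, in CPM on a log axis. Each point is 1 library and each bar the mean of a group, and knockout STZ groups stand at the left. Iapp, Slc2a2 and Gcg were about 3-fold higher at 4 wk than at 24 h in knockout islets, while both control STZ groups lay at similar levels.

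Among the beta-cell genes, Ucn3, Glp1r and Trpm5 stayed well below the vehicle level at 4 wk. Ucn3, the secreted peptide urocortin 3 that marks mature beta cells, had 96.6 and 125 CPM at 4 wk, against 54.6 and 59.3 CPM at 24 h, with 335 and 288 CPM in knockout vehicle islets (log2 fold change 0.96, SE 0.15, adjusted p = 0.00149 between the times after STZ). Glp1r, the receptor of the incretin GLP-1, had 38.4 and 41.0 CPM at 4 wk, against 21.4 and 22.3 CPM at 24 h, with 98.3 and 87.2 CPM after vehicle (log2 fold change 0.86, SE 0.099, adjusted p = 2.39e-04). Trpm5, a calcium-activated cation channel of the beta cell, had 32.4 and 35.7 CPM at 4 wk, against 14.2 and 15 CPM at 24 h, with 105 and 101 CPM after vehicle (log2 fold change 1.22, SE 0.095, adjusted p = 2.94e-05). Each lay above its 24 h level in both libraries at 4 wk and well below its vehicle level. Scaled on endocrine genes, the log2 fold changes of Ucn3, Glp1r and Trpm5 were -0.32, -0.43 and -0.063. Set against vehicle, 18 of the 26 beta-cell genes were lower 4 wk after STZ and the other 8 did not pass, where 24.1% of all genes tested were higher and 11.7% lower. The split over all genes was 4199 higher and 2045 lower. It became 3667 and 4409 with total counts and 9680 and 96 on the endocrine scale, where the median of the beta-cell genes moved to -0.10, against -0.83. With an offset for the GC content of genes it was 3959 higher and 7334 lower (median -0.32 over all genes). The gap between libraries A and B correlated with GC content in both groups (-0.80 at 4 wk and 0.68 after vehicle). The comparison with vehicle mixes treatment and time, and it shares the libraries at 4 wk with the comparison of the times.

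Genes of the secretory granule and its release moved in the same direction. Of 28 tested, 22 rose and 6 did not pass (median log2 fold change 1.11, and -0.18 on the endocrine scale). Scg5 and Chgb of this list are also among the 17 genes that set the endocrine scale. Small values of this list on that scale are therefore in part fixed by the scaling. Scg5, the chaperone of prohormone convertase 2, had 426 and 377 CPM at 4 wk, against 133 and 126 CPM at 24 h (log2 fold change 1.63, SE 0.12, adjusted p = 1.98e-05). Ptprn2, a membrane protein of dense-core granules, had 596 and 682 CPM at 4 wk, against 237 and 246 CPM at 24 h (log2 fold change 1.40, SE 0.10, adjusted p = 2.04e-05). Cacna1d, a subunit of the L-type calcium channels that open on depolarisation, had 81.8 and 87.4 CPM at 4 wk, against 32.6 and 34.7 CPM at 24 h (log2 fold change 1.33, SE 0.09, adjusted p = 1.54e-05). The granin Chgb had 866 and 1001 CPM at 4 wk, against 394 and 409 CPM at 24 h (log2 fold change 1.22, SE 0.10, adjusted p = 4.73e-05). No library at 24 h reached the lower of the libraries at 4 wk in any of these genes. They were named for the smallest p of their list, so this adds no support. Ero1lb, an oxidase that forms disulphide bonds in the endoplasmic reticulum of beta cells, rose less (log2 fold change 0.94, adjusted p = 0.003). On the endocrine scale the values of Chgb and Ero1lb were -0.067 and -0.35.

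Alpha cells, which STZ is known to spare, were represented by 14 genes, of which 8 rose, 1 fell and 5 did not pass (median log2 fold change 1.16, and -0.12 on the endocrine scale). Gcg, which encodes glucagon, had 20034 and 19723 CPM at 4 wk, against 7853 and 7716 CPM at 24 h (log2 fold change 1.35, SE 0.091, adjusted p = 1.5e-05), and 33429 and 35453 CPM in knockout vehicle islets. Pcsk2, the convertase that alpha and beta cells share, had 1476 and 1785 CPM at 4 wk, against 605 and 629 CPM at 24 h (log2 fold change 1.40, SE 0.12, adjusted p = 3.91e-05). Pcsk2 also belongs to the 17 genes that set the endocrine scale. Peg3, an imprinted zinc finger gene, had 603 and 565 CPM at 4 wk, against 283 and 282 CPM at 24 h (log2 fold change 1.05, SE 0.097, adjusted p = 7.30e-05), with a value of -0.24 on the endocrine scale. The gene that fell was Gc, the vitamin D binding protein made by alpha cells and in far larger amounts by liver, with 369 and 302 CPM at 4 wk, against 1453 and 1382 CPM at 24 h (log2 fold change -2.08, SE 0.14, adjusted p = 1.54e-05). Sst, the somatostatin of delta cells, had 299 and 498 CPM at 4 wk, against 139 and 158 CPM at 24 h (log2 fold change 1.42, SE 0.26, adjusted p = 0.00302). The glucagon and somatostatin genes thus rose by a factor close to those of Iapp and Slc2a2. On the endocrine scale the log2 fold changes were 0.066 for Gcg, 0.14 for Sst, 0.29 for Iapp and 0.38 for Slc2a2.

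Genes normally silenced in mature beta cells, or known as marks of beta-cell dedifferentiation, did not move as a group between the times. Of 22 tested, 5 rose, 10 fell and 7 did not pass (median log2 fold change -0.39), against 20.2% higher and 15.5% lower of all genes tested. Set against vehicle, 17 of the 22 were higher 4 wk after STZ and 5 did not pass (median 2.43). There 24.1% of all genes tested were higher and 11.7% lower. The list took 0.323 and 0.312% of counts at 4 wk, 0.245 and 0.241% at 24 h and 0.0162 and 0.0185% after vehicle. Aldh1a3 (chr7:66390893-66427477), a retinaldehyde dehydrogenase used as a mark of failing beta cells, had 62.8 and 70.0 CPM at 4 wk, against 8.11 and 7.53 CPM at 24 h (log2 fold change 3.09, SE 0.12, adjusted p = 1.68e-06), and 5.94 and 6.09 CPM in knockout vehicle islets. Both libraries at 4 wk were about 8-fold above those at 24 h, while the 24 h level was close to that after vehicle. In control islets the same gene had 18.3 and 17.8 CPM at 4 wk and 2.91 and 2.56 CPM at 24 h, and the difference between the genotypes' rises did not pass the interaction test (difference 0.37 on the log2 scale, SE 0.16, adjusted p = 0.192).

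Of the others that rose, 3 are described here and were named after their values were seen. Neurog3, the transcription factor of endocrine progenitors, had 1.73 and 2.90 CPM at 4 wk, against 0.545 and 0.516 CPM at 24 h (log2 fold change 2.13, SE 0.27, adjusted p = 4.19e-04), close to 3.27 and 2.66 CPM after vehicle. Serpina7, a thyroxine-binding globulin, had 248 and 165 CPM at 4 wk, against 20.4 and 20.6 CPM at 24 h (log2 fold change 3.33, SE 0.27, adjusted p = 4.23e-05). Gast, the gastrin gene, had 0.0917 and 0.312 CPM at 4 wk, against 0 and 0 CPM at 24 h, at least 14-fold higher when a floor of 3 counts over the group stands for the libraries at 0 (adjusted p = 0.00548). Among those that fell were 3 genes known to be kept low in beta cells. The chemokine gene Cxcl12 had 37.7 and 35.7 CPM at 4 wk, against 245 and 244 CPM at 24 h (log2 fold change -2.74, SE 0.12, adjusted p = 2.31e-06). Igfbp4, an insulin-like growth factor binding protein, had 35.1 and 45.3 CPM at 4 wk, against 245 and 258 CPM at 24 h, and the glutathione transferase Mgst1 had 153 and 125 CPM at 4 wk, against 596 and 553 CPM at 24 h, with log2 fold changes of -2.64 and -2.04 (adjusted p = 5.37e-06 and 2.12e-05). Macrophage and stellate cell genes moved in the same direction over these libraries, with values given below, and their part in these falls was not tested.

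The targeted gene was checked first among clock genes. Exon 8 of Arntl (chr7:113284999-113285156, mm10, numbered on NM_007489) had a coverage relative to the whole transcript of 1.01 and 0.687 in knockout islets at 4 wk, 1.36 and 0.944 at 24 h, and 0.629 and 0.614 after vehicle. Controls gave 1.56 to 1.97, so that every knockout library lay below every control library. Which exon is floxed is not stated in the labels. The Esr1 gene, whose sequence is partly held by the Cre fusion, had 118 and 130.0 CPM at 4 wk, 51.1 and 54.9 CPM at 24 h and 359 and 323 CPM after vehicle in knockout islets, against 0.978 and 0.706, 2.29 and 1.67 and 0.968 and 0.842 CPM in the same control groups. Reads of the transgene and of Esr1 itself cannot be told apart in these counts. Its change between the times was a log2 fold change of 1.23 (adjusted p = 8.52e-04), and -0.058 on the endocrine scale. Arntl had 11.3 and 11.6 CPM at 4 wk, against 8.88 and 9.43 CPM at 24 h, a small difference that did not survive the loss of any 1 of the 4 libraries (log2 fold change 0.32, adjusted p 0.0497, and 0.0895 to 0.227 with a library left out).

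Of 20 clock activators and repressors, 9 rose, 2 fell and 9 did not pass (median log2 fold change 0.44, and -0.84 on the endocrine scale). Without library A at 24 h, 5 rose, and without library B, 4 rose. Npas2, the partner of BMAL1 that can stand in for CLOCK, had 16.3 and 20.2 CPM at 4 wk, against 5.37 and 6.04 CPM at 24 h (log2 fold change 1.68, SE 0.20, adjusted p = 3.12e-04). The repressor gene Cry1 had 37.8 and 35.7 CPM at 4 wk, against 19.3 and 21.4 CPM at 24 h (log2 fold change 0.85, SE 0.14, adjusted p = 0.0017). Bhlhe41, another repressor of E-box genes, had 30.7 and 23.4 CPM at 4 wk, against 13.8 and 13.7 CPM at 24 h (log2 fold change 0.98, SE 0.17, adjusted p = 0.00222). In these 3 genes the libraries of the times did not overlap, which adds no support, as each was among the smallest p of the list. Of the 3, Npas2 alone kept a positive sign on the endocrine scale (0.39), with -0.44 for Cry1 and -0.31 for Bhlhe41.

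Other clock genes passed narrowly or not at all. The repressor Per2 had 34.0 and 39.4 CPM at 4 wk, against 25.2 and 24.9 CPM at 24 h (log2 fold change 0.55, adjusted p = 0.0073), and an adjusted p of 0.0545 without library B at 24 h. Nr1d1, which encodes the repressor REV-ERB alpha, had 23.7 and 49.2 CPM at 4 wk, against 25.2 and 30.3 CPM at 24 h, and the output gene Dbp had 15 and 24.1 CPM at 4 wk, against 14.4 and 18.3 CPM at 24 h. Their libraries overlapped between the times (adjusted p = 0.466 and 0.479). Ciart, a repressor of the CLOCK and BMAL1 dimer shown here for its promoter, had 1.91 and 1.66 CPM at 4 wk, against 2.71 and 3.39 CPM at 24 h (log2 fold change -0.77, adjusted p = 0.0439), a call lost without any 1 of the 4 libraries. On the endocrine scale Per2 had a value of -0.73.

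The E-box is the sequence through which the knocked out factor acts, so the promoters of 3 members that hold it are shown, as 100 bases around the match, read from the gene's strand in RefSeq promoters (GRCm38.p6). Capitals mark the canonical E-box CACGTG, which reads the same on both strands.
Cry1, chr10:85185062-85185161, minus strand: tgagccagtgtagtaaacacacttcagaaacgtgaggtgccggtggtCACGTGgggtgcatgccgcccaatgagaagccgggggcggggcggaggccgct
Bhlhe41, chr6:145865521-145865620, minus strand: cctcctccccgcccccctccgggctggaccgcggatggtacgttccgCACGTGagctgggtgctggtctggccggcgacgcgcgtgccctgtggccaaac
Ciart, chr3:95882229-95882328, minus strand: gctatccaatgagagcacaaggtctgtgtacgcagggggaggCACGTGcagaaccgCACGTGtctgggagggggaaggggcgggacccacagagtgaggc
The window of Ciart holds the motif at 2 places and the other windows at 1. Of the 20 clock genes 15 matched a RefSeq promoter, which runs from 250 bases before to 50 after the gene's start. The E-box was in 4 of them (26.7%), against 2187 of 27025 promoters of all genes (8.09%). Of the 4 genes with it 2 rose and 1 fell, and of the 11 without it 4 rose. A match describes the letters in the window and says nothing of binding in these islets.

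A minority of mitochondrial respiration genes rose at 4 wk. Of 40 nuclear genes of oxidative phosphorylation, 16 rose and 24 did not pass (median log2 fold change 0.41, and -0.88 on the endocrine scale). Without library B at 24 h 8 rose. Sdhd, a membrane subunit of succinate dehydrogenase, had 179 and 178 CPM at 4 wk, against 86.1 and 83.2 CPM at 24 h (log2 fold change 1.08, SE 0.086, adjusted p = 3.38e-05). Its catalytic subunit Sdha had 362 and 359 CPM at 4 wk, against 253 and 252 CPM at 24 h (log2 fold change 0.51, SE 0.084, adjusted p = 0.0015). Uqcrfs1, the iron-sulphur protein of complex III, and Atp5o, a stalk subunit of ATP synthase, rose with log2 fold changes of 0.63 and 0.59 (adjusted p = 0.00298 and 0.00286). A fit of the 4 libraries alone lost the calls of Sdha, Uqcrfs1 and Atp5o (adjusted p = 0.0771, 0.0575 and 0.0715). Scaled on endocrine genes, Sdhd, Sdha, Uqcrfs1 and Atp5o had values of -0.21, -0.77, -0.66 and -0.69. In knockout vehicle islets Sdhd had 97.3 and 100.1 CPM and Sdha 234 and 245 CPM. Of the 40 genes, 30 were higher 4 wk after STZ than after vehicle, where 24.1% of all genes tested were higher and 11.7% lower. The split over all genes in that comparison turned round with total counts and with the GC offset, as given above.

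Antioxidant genes split. Of 27 tested, 7 rose, 7 fell and 13 did not pass (median log2 fold change 0.20, and -1.09 on the endocrine scale). Over all genes tested 20.2% rose and 15.5% fell. Txn1, the cytosolic thioredoxin, had 204 and 198 CPM at 4 wk, against 97.5 and 96.6 CPM at 24 h (log2 fold change 1.05, SE 0.093, adjusted p = 5.87e-05), and 33.3 and 34.7 CPM after vehicle. Srxn1, the sulphiredoxin that restores oxidised peroxiredoxins, had 125 and 119 CPM at 4 wk, against 66.7 and 61.2 CPM at 24 h (log2 fold change 0.93, SE 0.11, adjusted p = 3.03e-04). Gpx3, the secreted glutathione peroxidase, had 259 and 305 CPM at 4 wk, against 134 and 139.8 CPM at 24 h (log2 fold change 1.04, SE 0.11, adjusted p = 1.65e-04). Against these, Hmox1, the stress-induced haem oxygenase that macrophages also express strongly, had 3.12 and 4.86 CPM at 4 wk, against 28.3 and 29.7 CPM at 24 h (log2 fold change -2.86, SE 0.26, adjusted p = 8.18e-05), and 4.54 and 3.47 CPM after vehicle. Txn1, Srxn1 and Gpx3 had negative values on the endocrine scale (-0.24, -0.36 and -0.24).

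Targets of p53 fell in part. Of 32 targets of the tumour suppressor p53, which DNA damage activates, 15 fell, 1 rose and 16 did not pass (median log2 fold change -0.73). Cdkn1a, the cell cycle inhibitor p21, had 76.4 and 82.6 CPM at 4 wk, against 161 and 155 CPM at 24 h (log2 fold change -0.99, SE 0.098, adjusted p = 1.04e-04), with 42.3 and 38.9 CPM after vehicle. Ddit4, an inhibitor of mTORC1 signalling, had 15.4 and 14.6 CPM at 4 wk, against 37.4 and 35.9 CPM at 24 h (log2 fold change -1.29, SE 0.093, adjusted p = 2.11e-05). Aen, a nuclease of p53-driven apoptosis, had 7.81 and 10.2 CPM at 4 wk, against 25.5 and 27.8 CPM at 24 h (log2 fold change -1.56, SE 0.22, adjusted p = 6.57e-04). Thus Cdkn1a was about 2-fold lower at 4 wk and still above vehicle, while Ddit4 and Aen fell to the vehicle level or below. The gene that rose was Sesn1, a stress-induced regulator of mTORC1, with 79.3 and 70.7 CPM at 4 wk, against 37.2 and 40.2 CPM at 24 h (log2 fold change 0.95, SE 0.13, adjusted p = 6.49e-04, and -0.33 on the endocrine scale). Mdm2, the ubiquitin ligase that degrades p53, had 62.8 and 52.8 CPM at 4 wk, against 75.5 and 74.4 CPM at 24 h and did not pass (adjusted p = 0.655).

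Genes of protein folding stress showed no common direction, where 20.2% of all genes tested rose and 15.5% fell. Of 31 genes of the unfolded protein and integrated stress responses, 5 rose, 7 fell and 19 did not pass (median log2 fold change 0.01, and -1.28 on the endocrine scale), and without either library at 24 h 1 rose and 3 fell. Atf3, a stress-induced transcription factor, had 2.72 and 2.86 CPM at 4 wk, against 8.08 and 8.47 CPM at 24 h (log2 fold change -1.57, SE 0.23, adjusted p = 8.40e-04). Calr, the chaperone calreticulin, and Creld2, a disulphide isomerase, fell by smaller amounts (log2 fold changes -0.47 and -0.53, adjusted p = 0.0045 and 0.00756). With total-count scaling neither of these passed. The apoptotic factor Ddit3 (CHOP) had 5.05 and 12.2 CPM at 4 wk, against 7.11 and 7.41 CPM at 24 h, which overlapped (adjusted p = 0.686).

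Immediate early genes, which respond to stimulation and to tissue handling within minutes, mostly fell. Of 24 tested, 16 fell, 2 rose and 6 did not pass (median log2 fold change -0.85). Fosb had 1.89 and 2.16 CPM at 4 wk, against 11.9 and 11.2 CPM at 24 h (log2 fold change -2.51, SE 0.17, adjusted p = 1.68e-05), the phosphatase gene Dusp1 13.6 and 15 CPM at 4 wk, against 38.8 and 40.7 CPM at 24 h (log2 fold change -1.47, SE 0.14, adjusted p = 7.58e-05) and the transcription factor gene Klf2 3.08 and 3.29 CPM at 4 wk, against 11.9 and 12.1 CPM at 24 h (log2 fold change -1.91, SE 0.20, adjusted p = 1.38e-04). The 2 that rose were Klf4, a transcription factor of differentiating epithelium, with 75.3 and 70.7 CPM at 4 wk, against 22 and 22.7 CPM at 24 h (log2 fold change 1.71, SE 0.13, adjusted p = 2.61e-05), and its relative Klf6, a call lost without any of 3 of the 4 libraries (log2 fold change 0.54, adjusted p = 0.0191, and 0.0926 to 0.0972 without library A or B at 24 h or library A at 4 wk). On the endocrine scale Klf6 had a value of -0.75.

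A minority of DNA replication and mitosis genes fell at 4 wk, and no call was in the other direction. Of 39 tested, 17 fell and 22 did not pass (median log2 fold change -0.65). Without library A at 24 h 9 fell, and without library B 10. Mcm3, a subunit of the replicative helicase, had 5.95 and 6.93 CPM at 4 wk, against 20.7 and 22.6 CPM at 24 h (log2 fold change -1.75, SE 0.14, adjusted p = 3.52e-05). Its partner Mcm4 had 14.8 and 13.1 CPM at 4 wk, against 26.8 and 26.2 CPM at 24 h (log2 fold change -0.92, SE 0.13, adjusted p = 5.92e-04). Bub1b, a kinase of the spindle checkpoint, had 3.60 and 3.44 CPM at 4 wk, against 11.8 and 12.1 CPM at 24 h (log2 fold change -1.76, SE 0.22, adjusted p = 4.03e-04). Uhrf1, which keeps DNA methylation through replication, had 1.98 and 2.62 CPM at 4 wk, against 8.13 and 7.62 CPM at 24 h (log2 fold change -1.77, SE 0.19, adjusted p = 1.82e-04). Mki67, the proliferation marker Ki-67, had 22.7 and 15.1 CPM at 4 wk, against 39.9 and 35.8 CPM at 24 h (log2 fold change -1.0, adjusted p = 0.00916, and 0.0579 without library A at 24 h). The level of Mki67 at 4 wk was still above 3.71 and 4.66 CPM after vehicle. Of the 39 genes, 32 were higher than after vehicle, where 24.1% of all genes tested were higher and 11.7% lower. The cells that express these genes were not identified, and B-cell and macrophage genes fell in the same libraries.

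**Figure D2:**
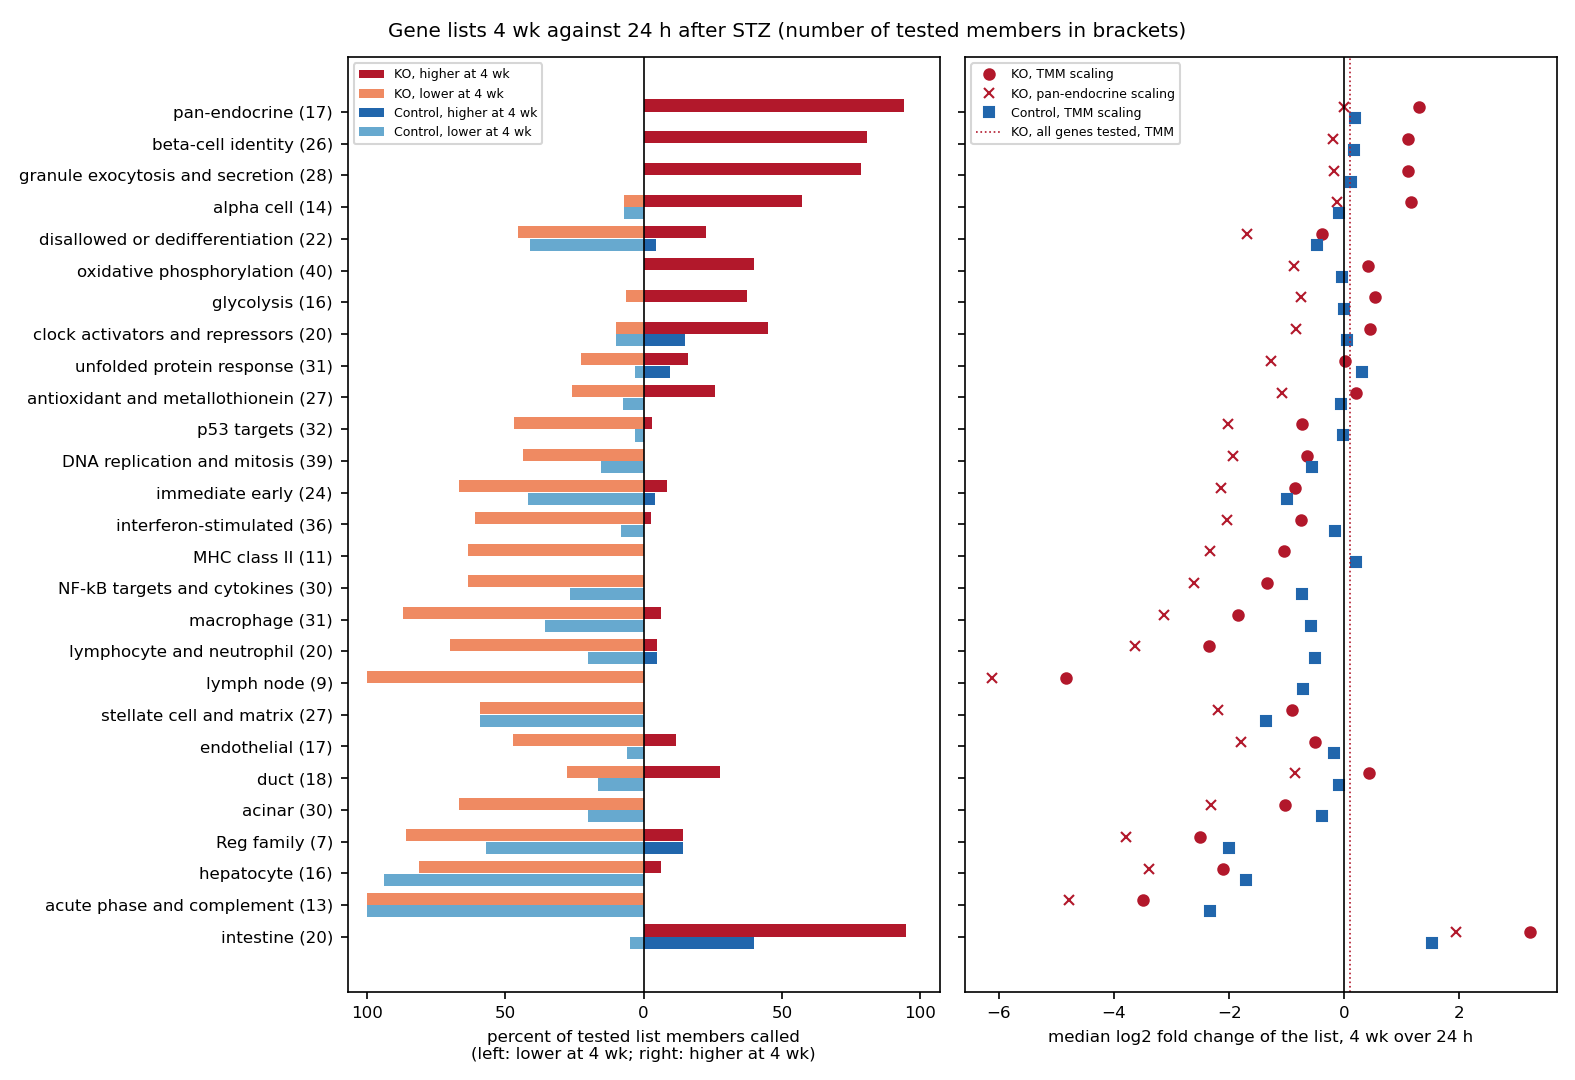
Left, the percentage of tested genes of each list that were higher or lower at 4 wk than at 24 h after STZ in knockout and in control islets. Right, the median log2 fold change of each list in knockout islets, in knockout islets scaled on 17 endocrine genes, and in control islets. Intestinal genes have the highest median (3.23) and lymph node genes the lowest (-4.83) of the knockout lists, and beta-cell and alpha-cell medians of 1.1 and 1.16 move to -0.19 and -0.12 on the endocrine scale.

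Most macrophage genes fell. Of 31 tested, 27 fell, 2 rose and 2 did not pass (median log2 fold change -1.85), and the list took 0.108 and 0.129% of counts at 4 wk, 0.328 and 0.343% at 24 h and 0.0213 and 0.0196% after vehicle. Lyz2 (chr10:117277541-117282272), the lysozyme of macrophages and neutrophils, had 92.1 and 84.4 CPM at 4 wk, against 669.7 and 637 CPM at 24 h (log2 fold change -2.89, SE 0.11, adjusted p = 1.68e-06), and 11.0 and 11.1 CPM after vehicle. Adgre1, the macrophage surface protein F4/80, had 21.7 and 17.6 CPM at 4 wk, against 102 and 92.5 CPM at 24 h (log2 fold change -2.31, SE 0.17, adjusted p = 2.67e-05). Cd163, a haemoglobin scavenger receptor of resident macrophages, had 2.72 and 2.34 CPM at 4 wk, against 44.2 and 41.8 CPM at 24 h (log2 fold change -4.09, SE 0.30, adjusted p = 2.65e-05). Marco (chr1:120474538-120505084), a scavenger receptor known from macrophages of the splenic marginal zone and lymph nodes, had 1.41 and 1.47 CPM at 4 wk, against 324 and 348 CPM at 24 h (log2 fold change -7.87, SE 0.27, adjusted p = 2.44e-06). All 4 genes fell at least 4-fold in both libraries, and those with counts after vehicle stayed above vehicle at 4 wk.

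The exceptions were Lgals3 and Lyz1. Lgals3, the lectin galectin-3 of activated macrophages and of many epithelia, had 115 and 119 CPM at 4 wk, against 57.9 and 57.9 CPM at 24 h (log2 fold change 1.01, SE 0.15, adjusted p = 0.00111, and -0.27 on the endocrine scale), against 1.07 and 1.32 CPM after vehicle. Lyz1, the lysozyme of the Paneth cells of the small intestine, had 115 and 96.6 CPM at 4 wk, against 26.2 and 25.3 CPM at 24 h (log2 fold change 2.04, SE 0.36, adjusted p = 0.00235) and was named after its value was seen. Against knockout vehicle islets, 29 of the 31 macrophage genes were higher 4 wk after STZ, where 24.1% of all genes tested were higher and 11.7% lower.

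Most lymphocyte and neutrophil genes fell. Of 20 lymphocyte and neutrophil genes, 14 fell, 1 rose and 5 did not pass (median log2 fold change -2.35). The B-cell gene Ms4a1 (CD20) had 1.71 and 1.12 CPM at 4 wk, against 93.3 and 81.8 CPM at 24 h (log2 fold change -5.96, SE 0.37, adjusted p = 1.21e-05). Cd79b, a subunit of the B-cell receptor, had 3.64 and 4.00 CPM at 4 wk, against 61.6 and 61.4 CPM at 24 h (log2 fold change -4.01, SE 0.36, adjusted p = 7.30e-05). S100a9, a calcium-binding protein of neutrophils, had 0.101 and 0.172 CPM at 4 wk, against 5.87 and 4.64 CPM at 24 h (log2 fold change -5.25, SE 0.45, adjusted p = 5.39e-05). The gene that rose was Gzmb, the granzyme of cytotoxic lymphocytes, with 12.6 and 12.8 CPM at 4 wk, against 2.82 and 2.93 CPM at 24 h (log2 fold change 2.14, adjusted p = 0.0164, and 0.103 and 0.100 without library A or B at 24 h).

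All 9 tested lymph node genes fell, with a median log2 fold change of -4.83, and the list took 0.000955 and 0.00166% of counts at 4 wk, 0.0359 and 0.0354% at 24 h and 0.0000621 and 0.0000531% after vehicle. Cxcl13 (chr5:95956939-95961068), the chemokine that draws B cells into follicles, had 0.899 and 0.633 CPM at 4 wk, against 78.8 and 68.4 CPM at 24 h (log2 fold change -6.59, SE 0.49, adjusted p = 2.83e-05). Cr2, the complement receptor of B cells and follicular dendritic cells, had 0.817 and 0.719 CPM at 4 wk, against 64.5 and 58.9 CPM at 24 h (log2 fold change -6.33, SE 0.48, adjusted p = 5.66e-05). Ccl19, a chemokine of the T-cell zone, had 0.450 and 0.742 CPM at 4 wk, against 9.08 and 9.68 CPM at 24 h (log2 fold change -3.97, SE 0.47, adjusted p = 3.07e-04). Fcer2a, an IgE receptor of B cells, had 0.752 and 0.656 CPM at 4 wk, against 36.5 and 37.9 CPM at 24 h (log2 fold change -5.72, SE 0.64, adjusted p = 3.88e-04). At 24 h these genes stood over 12-fold above their levels at 4 wk in every library. The list has defining genes of lymph node tissue, and whether such tissue came with the islets was not tested.

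**Figure D3:**
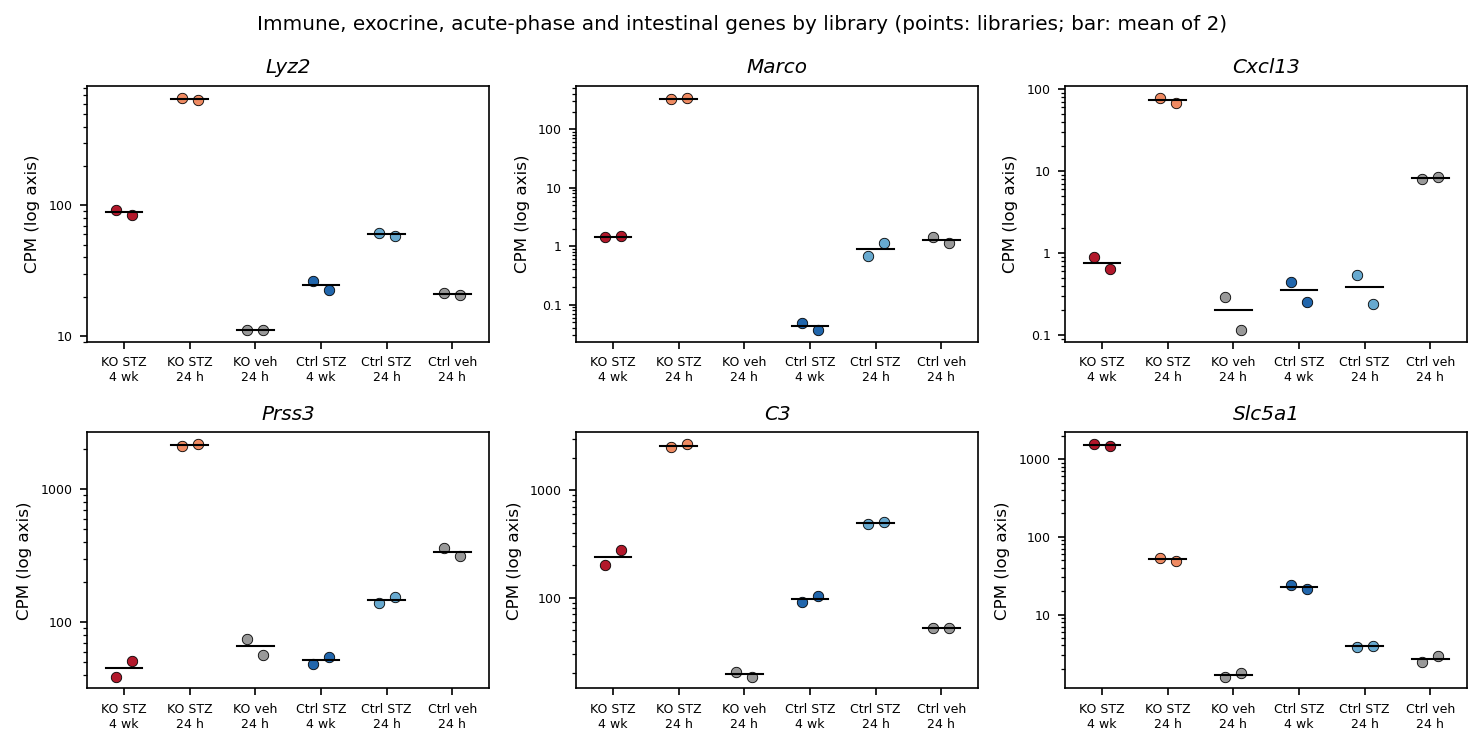
Expression of 6 genes in all 12 libraries, in CPM on a log axis; each point is 1 library and each bar the mean of a group. Lyz2, Marco, Cxcl13, C3 and the trypsinogen gene Prss3 are lower, and the glucose transporter gene Slc5a1 higher, at 4 wk than at 24 h in knockout islets. Marco was at 0 in both knockout vehicle libraries, which are not drawn on the log axis.

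Genes of MHC class II, which present antigen on B cells, macrophages and dendritic cells, were lower as well. Of 11 tested, 7 fell and 4 did not pass (median log2 fold change -1.05), and without library B at 4 wk all 11 fell. H2-Aa, a chain of the presenting molecule, had 159.8 and 190.5 CPM at 4 wk, against 352 and 361 CPM at 24 h (log2 fold change -1.03, SE 0.12, adjusted p = 2.10e-04), and 32.4 and 31.1 CPM after vehicle. H2-Ob, a B-cell regulator of peptide loading, had 3.87 and 3.72 CPM at 4 wk, against 74.1 and 67.5 CPM at 24 h (log2 fold change -4.22, SE 0.22, adjusted p = 4.66e-06). Ciita, the master activator of the class, had 5.79 and 10.3 CPM at 4 wk, against 30.8 and 37.1 CPM at 24 h (log2 fold change -2.07, SE 0.32, adjusted p = 0.00119). The fall of H2-Ob was about 19-fold and that of H2-Aa about 2-fold. All 11 genes were higher at 4 wk than after vehicle, where 24.1% of all genes tested were higher and 11.7% lower.

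NF-kB targets, cytokines and chemokines fell in 19 of 30 genes tested, and 11 did not pass (median log2 fold change -1.34). Without library A at 24 h 12 fell. The adhesion molecule genes Vcam1 and Icam1, which NF-kB induces on endothelium, had 17.1 and 13.6 CPM at 4 wk, against 140.4 and 124 CPM at 24 h, and 5.16 and 6.74 CPM at 4 wk, against 35.6 and 39.7 CPM at 24 h, with log2 fold changes of -3.11 and -2.66 (adjusted p = 1.54e-05 and 8.19e-05). Nfkbie, an inhibitor of NF-kB that is itself a target, had 3.53 and 4.25 CPM at 4 wk, against 18 and 18.5 CPM at 24 h (log2 fold change -2.23, SE 0.16, adjusted p = 1.87e-05). Tnfrsf1b, a receptor of tumour necrosis factor, had 10.4 and 13.0 CPM at 4 wk, against 44.8 and 49.0 CPM at 24 h (log2 fold change -2.0, SE 0.17, adjusted p = 4.54e-05). These 4 genes were named for the smallest p of their list, so their libraries not overlapping between the times adds no support.

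Interferon-stimulated genes were lower in 22 of 36 tested, higher in 1, and 13 did not pass (median log2 fold change -0.75). Bst2, the tetherin that holds budding virus at the cell surface, had 7.29 and 9.92 CPM at 4 wk, against 47.4 and 46.5 CPM at 24 h (log2 fold change -2.45, SE 0.16, adjusted p = 1.57e-05), and 4.00 and 4.18 CPM after vehicle. Gbp3, an interferon-induced guanylate-binding protein, had 15.4 and 12.9 CPM at 4 wk, against 33.7 and 30.9 CPM at 24 h (log2 fold change -1.19, SE 0.14, adjusted p = 2.65e-04). The immunity-related GTPase Iigp1 had 39.0 and 26.2 CPM at 4 wk, against 118 and 99.8 CPM at 24 h (log2 fold change -1.74, SE 0.22, adjusted p = 4.42e-04). The fall of Bst2 was about 5-fold, and that of Gbp3 was about 2-fold. The gene that rose was Ifit1, a sensor of viral RNA, with 18.7 and 15 CPM at 4 wk, against 10.9 and 10.7 CPM at 24 h (log2 fold change 0.64, adjusted p = 0.018). Its adjusted p was 0.0848 and 0.100 without library A or B at 24 h and 0.0937 without library A at 4 wk, and its value on the endocrine scale was -0.65.

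Promoters of interferon genes carry repeats of GAAA to which factors of the IRF and STAT families bind. They are shown for 4 genes that fell together, as 100 bases around the match from RefSeq promoters (GRCm38.p6) on the gene's strand. Capitals mark GAAA, any 2 bases and GAAA again, or the reverse complement, and neighbouring matches that overlap.
Bst2, chr8:71537542-71537641, minus strand: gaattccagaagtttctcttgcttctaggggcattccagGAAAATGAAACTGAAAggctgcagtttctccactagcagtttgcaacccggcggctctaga
Gbp3, chr3:142559944-142560043, plus strand: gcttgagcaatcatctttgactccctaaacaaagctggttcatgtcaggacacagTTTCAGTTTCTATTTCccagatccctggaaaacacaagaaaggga
Gbp7, chr3:142530236-142530335, plus strand: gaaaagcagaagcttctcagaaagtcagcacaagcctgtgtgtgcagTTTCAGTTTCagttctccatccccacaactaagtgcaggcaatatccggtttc
Gbp2, chr3:142620559-142620658, plus strand: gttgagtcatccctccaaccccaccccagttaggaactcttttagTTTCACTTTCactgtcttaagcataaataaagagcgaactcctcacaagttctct
In Bst2 and Gbp3 2 overlapping matches form 1 run, and Gbp7 and Gbp2 hold 1 match each. Of the 36 interferon genes 28 matched a promoter and 17 of these held the motif on either strand (60.7%), against 1079 of 27025 promoters of all genes (3.99%). Of the 17 with the motif 11 fell and 1 rose, and of the 11 without it 6 fell. Gbp7 and Gbp2, neighbours of Gbp3 named for their promoters, had 29.4 and 24.5 CPM at 4 wk, against 55.7 and 50.6 CPM at 24 h (log2 fold change -0.98, SE 0.15, adjusted p = 0.00132) and 22.9 and 18.6 CPM at 4 wk, against 40.6 and 39.1 CPM at 24 h (log2 fold change -0.94, SE 0.16, adjusted p = 0.00173). Gbp genes are close relatives, so that reads may be shared among them.

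All 13 acute phase and complement genes tested fell, with a median log2 fold change of -3.50. C3, the central complement component, had 203 and 276 CPM at 4 wk, against 2515 and 2677 CPM at 24 h (log2 fold change -3.44, SE 0.16, adjusted p = 3.35e-06), and 20.6 and 18.4 CPM after vehicle. Serpina3n, a protease inhibitor of the acute phase, had 25.5 and 32.3 CPM at 4 wk, against 442 and 457 CPM at 24 h (log2 fold change -3.96, SE 0.22, adjusted p = 6.97e-06). Orm2, an orosomucoid of liver, had 0.725 and 0.859 CPM at 4 wk, against 31.0 and 30.4 CPM at 24 h (log2 fold change -5.27, SE 0.20, adjusted p = 3.15e-06). The serum amyloid gene Saa1 had 1.22 and 0.680 CPM at 4 wk, against 48.6 and 43.6 CPM at 24 h (log2 fold change -5.61, SE 0.31, adjusted p = 1.45e-05). Both libraries at 4 wk lay over 8-fold below those at 24 h in all 4 genes. Of 16 hepatocyte genes, 13 fell, 1 rose and 2 did not pass (median log2 fold change -2.11), and the list took 0.920 and 0.843% of counts at 4 wk, 2.0 and 1.96% at 24 h and 0.00566 and 0.00510% after vehicle. The gene that rose was Apoa1, an apolipoprotein of liver and small intestine, with 1022 and 1563 CPM at 4 wk, against 419 and 462 CPM at 24 h (log2 fold change 1.55, SE 0.26, adjusted p = 0.00183). The part of liver RNA in the acute phase values was not tested.

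Most acinar genes fell at 4 wk. Of 30 acinar genes tested, 20 fell and 10 did not pass (median log2 fold change -1.02). The trypsinogen gene Prss3 (chr6:41373759-41377613) had 39.1 and 51.1 CPM at 4 wk, against 2110.4 and 2186 CPM at 24 h (log2 fold change -5.57, SE 0.21, adjusted p = 1.51e-06), and 74.9 and 56.9 CPM after vehicle. Prss1 had 67.1 and 51.8 CPM at 4 wk, against 500.4 and 528 CPM at 24 h (log2 fold change -3.11, SE 0.22, adjusted p = 2.11e-05). Try4 and Try5, the more abundant trypsinogens, had 5497 and 7013 CPM at 4 wk, against 27633 and 29553 CPM at 24 h, and 5567 and 5948 CPM at 4 wk, against 22237 and 22434 CPM at 24 h (log2 fold changes -2.19 and -1.96, adjusted p = 3.25e-05 and 5.37e-06). Prss3 fell about 48-fold, to below its vehicle level, while Try4 and Try5 fell about 4-fold. These genes are near copies of one another, so that the division of reads among them is uncertain.

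The Reg family, secreted lectins that acinar cells make after injury, followed. Of 7 tested, 6 fell and 1 rose (median log2 fold change -2.50). Reg2 had 1125 and 820.1 CPM at 4 wk, against 10952 and 9924 CPM at 24 h (log2 fold change -3.42, SE 0.20, adjusted p = 1.0e-05), Reg3a 117 and 78.8 CPM at 4 wk, against 1539 and 1429 CPM at 24 h (log2 fold change -3.92, SE 0.23, adjusted p = 9.39e-06), Reg3b 592 and 469 CPM at 4 wk, against 3908 and 3634 CPM at 24 h (log2 fold change -2.83, SE 0.15, adjusted p = 5.37e-06) and Reg3g 104 and 83.5 CPM at 4 wk, against 453 and 423 CPM at 24 h (log2 fold change -2.23, SE 0.13, adjusted p = 8.13e-06). Reg2 and Reg3a ended below their vehicle levels of 2092 and 2562 and 201 and 261 CPM. Reg4, the member made by intestinal secretory cells, was the gene that rose, with 24.8 and 21.6 CPM at 4 wk, against 0.339 and 0.564 CPM at 24 h (log2 fold change 5.67, SE 0.35, adjusted p = 1.43e-04).

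Stellate cell and matrix genes fell in 16 of 27 tested and 11 did not pass (median log2 fold change -0.91). Dcn, the proteoglycan decorin, had 114 and 85.4 CPM at 4 wk, against 540.2 and 495 CPM at 24 h (log2 fold change -2.38, SE 0.19, adjusted p = 3.65e-05). Vim, the filament protein of mesenchymal cells, had 40.1 and 41.7 CPM at 4 wk, against 119 and 122 CPM at 24 h (log2 fold change -1.56, SE 0.098, adjusted p = 1.14e-05). Postn, a matrix protein of wounded tissue, had 19.6 and 14.6 CPM at 4 wk, against 81.5 and 75.6 CPM at 24 h (log2 fold change -2.20, SE 0.22, adjusted p = 1.17e-04). Timp1, an inhibitor of matrix proteases, had 0.376 and 0.344 CPM at 4 wk, against 5.26 and 4.50 CPM at 24 h (log2 fold change -3.76, SE 0.32, adjusted p = 4.82e-05). The list took 0.0981 and 0.128% of counts at 4 wk, 0.213 and 0.225% at 24 h and 0.0665 and 0.0563% after vehicle. Timp1 and Postn came back close to their vehicle levels of 0.325 and 0.229 and 11.3 and 14.3 CPM, and Dcn and Vim stayed above 26.6 and 33.9 and 13.0 and 14.8 CPM. Duct genes split, with 5 higher and 5 lower of 18 tested (median log2 fold change 0.42, and -0.86 on the endocrine scale), and 3 higher without either library at 24 h. Among all genes tested 20.2% were higher and 15.5% lower. Epcam, an adhesion protein of most epithelia, had 241 and 259 CPM at 4 wk, against 63.4 and 63.2 CPM at 24 h (log2 fold change 1.98, SE 0.094, adjusted p = 3.15e-06). Cftr, the chloride channel of ducts and intestine, had 51.4 and 37.4 CPM at 4 wk, against 4.65 and 3.71 CPM at 24 h (log2 fold change 3.41, SE 0.37, adjusted p = 1.99e-04). Lcn2, an iron-scavenging protein of injured epithelium, fell with 0.972 and 1.59 CPM at 4 wk, against 16.5 and 19.0 CPM at 24 h (log2 fold change -3.79, SE 0.28, adjusted p = 2.67e-05), and the secreted phosphoprotein gene Spp1 fell with a log2 fold change of -1.28 (adjusted p = 1.67e-04).

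Genes typical of the small intestine made the largest gains. Of 20 tested, 19 rose and 1 did not pass, with a median log2 fold change of 3.23, and of 1.94 on the endocrine scale. The list took 1.63 and 1.64% of counts at 4 wk, 0.142 and 0.146% at 24 h and 0.0285 and 0.0255% after vehicle. Slc5a1 (chr5:33104219-33162699), the sodium-glucose transporter of the brush border, had 1559.6 and 1477 CPM at 4 wk, against 52.9 and 49.5 CPM at 24 h (log2 fold change 4.89, SE 0.14, adjusted p = 5.19e-07), and 1.59 and 1.75 CPM after vehicle. Sis (chr3:72888560-72966866), the brush border enzyme sucrase-isomaltase, had 2990.0 and 2034 CPM at 4 wk, against 26.1 and 25.1 CPM at 24 h (log2 fold change 6.62, SE 0.49, adjusted p = 2.75e-05). Fabp2, a fatty acid carrier of enterocytes, had 3049 and 2068 CPM at 4 wk, against 121 and 102 CPM at 24 h (log2 fold change 4.52, SE 0.30, adjusted p = 1.69e-05). Libraries A and B stood within 2-fold of each other at 4 wk, and every gene named here was at least 8-fold above its 24 h level. Vil1, the microvillus protein villin, had 623 and 946 CPM at 4 wk, against 70.7 and 75.5 CPM at 24 h (log2 fold change 3.42, SE 0.23, adjusted p = 1.60e-05). Anpep, the brush border aminopeptidase N, had 1484 and 2068 CPM at 4 wk, against 125 and 138 CPM at 24 h (log2 fold change 3.75, SE 0.19, adjusted p = 4.00e-06). Both had counts without injury as well, at 93.2 and 73.1 CPM for Vil1 and 104 and 92.6 CPM for Anpep after vehicle.

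The 15 largest gains among genes of at least 2 CPM on average held 6 genes of the Paneth cell alpha-defensin family, antimicrobial peptides of the small intestine. Defa23 had 42.3 and 36.0 CPM at 4 wk, against 0 and 0 CPM at 24 h, at least 2616-fold higher when 3 counts over the group stand for the 0 (adjusted p = 2.53e-04). Transcripts of that name span chr8:21055040-21192549 from lowest start to highest end, which need not be a single gene copy. Defa17 had 21.3 and 20.7 CPM at 4 wk, against 0 and 0 CPM at 24 h (at least 1410-fold higher), Defa3 had 19.0 and 19.1 CPM at 4 wk, against 0 and 0 CPM at 24 h (at least 1280-fold higher), and the related defensin gene AY761184 had 15.1 and 15.3 CPM at 4 wk, against 0 and 0 CPM at 24 h (at least 1026-fold higher). Defa24 had 51.4 and 41.0 CPM at 4 wk, against 0.0103 and 0.0287 CPM at 24 h, and Defa6 had 40.4 and 30.4 CPM at 4 wk, against 0.0514 and 0.0860 CPM at 24 h. The defensin genes are near copies, Defa23 overlaps another defensin gene on its strand and Defa24 overlaps Defa6, so the value of each single gene is uncertain. Ang4, an angiogenin of Paneth cells, had 6.04 and 4.59 CPM at 4 wk, against 0.0309 and 0 CPM at 24 h (log2 fold change 8.37, SE 0.85, adjusted p = 0.00212). Mptx2, a pentraxin of the same cells, had 6.76 and 4.71 CPM at 4 wk, against 0.0617 and 0.0191 CPM at 24 h (log2 fold change 7.13, SE 0.61, adjusted p = 0.00122).

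**Figure D4:**
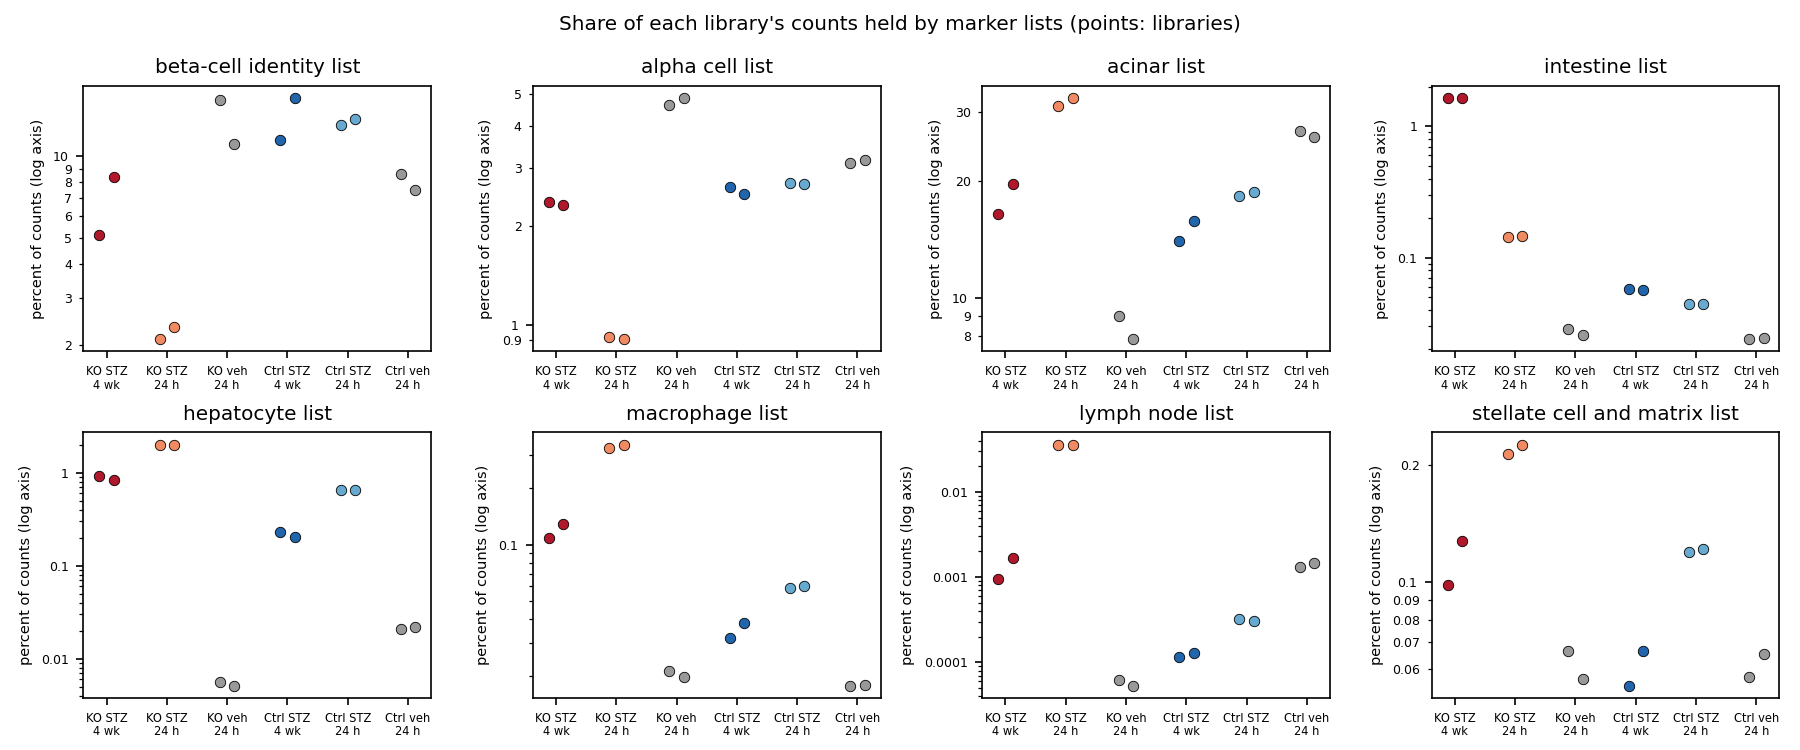
Share of all counts, in percent on a log axis, taken by 8 lists of marker genes in all 12 libraries; each point is 1 library. In knockout islets the beta-cell and intestinal lists take larger shares, and the acinar, hepatocyte, macrophage, stellate and lymph node lists smaller ones, at 4 wk than at 24 h after STZ.

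Transporters and enzymes of the small intestine and kidney made up most of the rest. Slc5a12, a sodium-coupled lactate transporter, had 189 and 128 CPM at 4 wk, against 0.247 and 0.373 CPM at 24 h (log2 fold change 8.99, SE 0.34, adjusted p = 2.75e-05). Its relative Slc5a4b had 58.9 and 64.0 CPM at 4 wk, against 0.175 and 0.258 CPM at 24 h (log2 fold change 8.14, SE 0.26, adjusted p = 1.5e-05). Enpp7, the alkaline sphingomyelinase of the intestine, had 26.2 and 36.8 CPM at 4 wk, against 0 and 0.0956 CPM at 24 h (log2 fold change 9.29, SE 0.94, adjusted p = 0.00208). Dnase1, a secreted nuclease, had 58.3 and 60.3 CPM at 4 wk, against 0.226 and 0.287 CPM at 24 h (log2 fold change 7.84, SE 0.43, adjusted p = 3.47e-05). The apolipoprotein L gene Apol10a had 48.2 and 38.3 CPM at 4 wk, against 0.432 and 0.421 CPM at 24 h (log2 fold change 6.66, SE 0.45, adjusted p = 1.99e-04). With DESeq2 the calls of Enpp7, Ang4 and Mptx2 were lost. In knockout vehicle libraries Slc5a12, Slc5a4b, Enpp7, Apol10a, Ang4 and Mptx2 had 0 counts. Whether intestinal tissue or RNA entered the preparations at 4 wk was not tested.

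Atp6v0c-ps2, a processed pseudogene copy of a proton pump subunit gene, had 34.1 and 61.3 CPM at 4 wk, against 0.0926 and 0.115 CPM at 24 h (log2 fold change 8.83, SE 0.97, adjusted p = 2.07e-04), while its parent Atp6v0c had 0.385 and 0.797 CPM at 4 wk, against 44.1 and 51.5 CPM at 24 h (log2 fold change -6.32, SE 0.45, adjusted p = 2.16e-05). The annotation places both on the same strand with overlapping exons. Reads of the copy and the parent cannot be told apart with certainty, and neither value is read as a change here.

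The 15 largest losses held macrophage and B-cell genes and the stomach gene Tff1. As a list, stomach genes did not fall alike. Of 11 tested, 1 rose, 3 fell and 7 did not pass (median log2 fold change -0.30), against 20.2% higher and 15.5% lower of all genes tested. Tff1 (chr17:31161396-31165053), the trefoil peptide of stomach mucus, had 0 and 0 CPM at 4 wk, against 12.1 and 11.5 CPM at 24 h, at least 930-fold lower with 3 counts over the group in place of the 0 (adjusted p = 3.22e-05). Retnla, a secreted protein of alternatively activated macrophages, had 0 and 0 CPM at 4 wk, against 10.9 and 10.7 CPM at 24 h (at least 854-fold lower), Duoxa2, the maturation factor of a dual oxidase, had 0 and 0 CPM at 4 wk, against 4.89 and 4.68 CPM at 24 h (at least 377-fold lower), and Kel, the blood group protease of red cell precursors, had 0 and 0 CPM at 4 wk, against 4.57 and 3.65 CPM at 24 h (at least 323-fold lower). None of these 4 had a count in either library at 4 wk. Chil3, a chitinase-like protein of macrophages, had 0 and 0.0781 CPM at 4 wk, against 14.5 and 14.1 CPM at 24 h (log2 fold change -8.40, SE 1.15, adjusted p = 6.34e-04). Saa3, a serum amyloid of macrophages, had 0.0367 and 0.148 CPM at 4 wk, against 22.7 and 20.4 CPM at 24 h (log2 fold change -7.81, SE 0.70, adjusted p = 7.06e-05). Pax5, the transcription factor of B-cell identity, had 0 and 0.0703 CPM at 4 wk, against 4.77 and 5.46 CPM at 24 h (log2 fold change -7.07, SE 0.91, adjusted p = 0.00237), a call lost with DESeq2. Fcamr, a receptor of IgA and IgM on B cells and follicular dendritic cells, had 0 and 0.0469 CPM at 4 wk, against 6.05 and 6.62 CPM at 24 h (log2 fold change -7.93, SE 0.78, adjusted p = 3.92e-04). Tnfsf11, the cytokine RANKL, had 0.174 and 0 CPM at 4 wk, against 12 and 11.6 CPM at 24 h (log2 fold change -7.13, SE 1.23, adjusted p = 0.00308).

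The rest of the largest losses were Dpcr1, Dsc3, Sema3a and Il4i1, besides Marco and Cxcl13. Dsc3, a desmosomal cadherin of stratified epithelium, had 0.495 and 0.258 CPM at 4 wk, against 37.7 and 34.7 CPM at 24 h (log2 fold change -6.59, SE 0.54, adjusted p = 4.41e-05). The guidance cue Sema3a had 0.229 and 0.367 CPM at 4 wk, against 29.4 and 27.3 CPM at 24 h (log2 fold change -6.56, SE 0.42, adjusted p = 1.44e-05). Dpcr1, a mucin-like gene, had 0.0275 and 0.0469 CPM at 4 wk, against 9.39 and 7.71 CPM at 24 h (log2 fold change -7.78, SE 1.0, adjusted p = 4.50e-04). Il4i1, an amino acid oxidase of immune cells, had 0.266 and 0.0469 CPM at 4 wk, against 11.8 and 13.0 CPM at 24 h (log2 fold change -6.33, SE 0.73, adjusted p = 0.00154) and overlaps another gene on its strand, which makes its value uncertain. Each was under 0.5 CPM at 4 wk and above 7 CPM at 24 h in both libraries.

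Fewer genes passed the test in control islets between the same times. There 221 genes were higher (1.27% of those tested) and 735 lower (4.22%) at 4 wk than at 24 h, with 507 or 494 changed genes in all without library A or B at 24 h and 585 or 610 without A or B at 4 wk, against 956. The difference between the genotypes was tested directly as an interaction. It was positive in 1531 genes (8.79%) and negative in 887 (5.09%), and the 2418 genes in all became 1234 and 1187 without knockout library A or B at 24 h, and 1234 and 1217 without control library A or B at 24 h. The split was 1203 positive and 1076 negative with DESeq2's size factors, 2144 and 678 with total counts, and 310 and 9063 on the endocrine scale.

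Part of the endocrine genes differed between the genotypes. Of the 26 beta-cell genes, 12 had a more positive change in knockout than in control islets by the interaction test, and of the 28 granule genes 15 did. The median differences were 0.93 and 0.99 on the log2 scale, and -0.20 and -0.13 on the endocrine scale. Some granule genes, among them Scg5 and Chgb, also set that scale. In controls no beta-cell or granule gene passed by edgeR, where 3 in each list had an unadjusted p under 0.05 and DESeq2 called 2 and 3. Slc2a2 had 746 and 637 CPM at 4 wk and 764 and 753 CPM at 24 h in controls, against 593 and 605 CPM after vehicle, and its knockout change exceeded the control change by 1.80 on the log2 scale (adjusted p = 4.39e-04). Gcg had 19254 and 18456 CPM at 4 wk and 21347 and 21408 CPM at 24 h in controls (difference of changes 1.53, adjusted p = 2.32e-04). The knockout 24 h libraries, not the control ones, were those that stood low in both genes. For Ins1 the difference of 1.52 did not pass (adjusted p = 0.0604).

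Some immune genes fell more in knockout than in control islets. By the interaction test 13 of 31 macrophage, 6 of 11 MHC class II, 10 of 36 interferon, 9 of 30 NF-kB and 5 of 9 lymph node genes had a more negative change in knockout islets. So did 3 of 18 MHC class I and 5 of 20 lymphocyte and neutrophil genes. The difference was positive in 2 macrophage genes and 1 NF-kB gene. Among all genes tested it was negative in 5.09% and positive in 8.79%, and on the endocrine scale negative in 9063 genes and positive in 310. The call of the lymph node gene Cr2 was lost without control library A at 4 wk (difference -0.66, adjusted p = 0.847, against -5.14), and that of Fcer2a without control library B at 4 wk (0.14, adjusted p = 0.835). Lyz2 had 26.5 and 22.4 CPM at 4 wk and 61.5 and 58.4 CPM at 24 h in controls (difference of changes -1.60, adjusted p = 4.39e-04). In controls 11 of the 31 macrophage genes fell, and no MHC class II gene passed by edgeR, where 1 in each direction had an unadjusted p under 0.05 and DESeq2 called 1 in each direction. All 13 acute phase genes fell in each genotype, and the difference passed for 3. Stellate cell and matrix genes fell in 16 of 27 in each genotype, with medians of -0.91 in knockout and -1.36 in control islets. Among them the interaction was positive in 7 and negative in 2.

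The largest differences between the genotypes lay in low or gut-related genes. Itln1, the intelectin of intestinal secretory cells, had 27.0 and 28.9 CPM at 4 wk and 0.658 and 0.717 CPM at 24 h in knockout islets, against 0 and 0 and 0 and 0.0321 CPM in controls. Xpnpep2, a membrane aminopeptidase of kidney and gut, had 31.0 and 33.8 and 1.81 and 1.23 CPM in knockout islets at the same times, against 0.0904 and 0.0437 and 0.132 and 0.28 CPM in controls. S100g, the intestinal calcium-binding protein calbindin-D9k, fell in knockout and rose in control islets, with 11.9 and 8.72 and 43.0 and 37.9 CPM in knockout islets and 16.3 and 13.0 and 0.0263 and 0.0721 CPM in controls. Of the 20 intestinal genes 19 rose in knockout islets, and 8 rose and 1 fell in control islets. The list took 0.0581 and 0.0565% of counts at 4 wk and 0.0440 and 0.0442% at 24 h in controls. Tmprss15, the enteropeptidase of the duodenum, had 92.4 and 65.2 and 17.4 and 15.7 CPM in knockout islets, against 3.51 and 2.72 and 0 and 0 CPM in controls.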

How the data were processed

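Islet RNA was sequenced in 12 libraries as stranded mRNA, per the labels. The authors deposited estimated counts (expected counts, whole numbers) per gene, from StringTie 1.3.6 with a fixed annotation of mm10, per the file headers. No source used here names the aligner. Coverage of Arntl exons was read from the transcript files the authors deposited. The table held 24421 genes, of which 4797 had 0 counts in every library.

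All 12 libraries entered 1 fit of edgeR 4.0.16 under R 4.3.3 (TMM normalisation, filterByExpr, robust quasi-likelihood F test, two-sided, 6 residual degrees of freedom, common dispersion 0.0493). The interaction is the knockout change minus the control change. P-values were adjusted by Benjamini-Hochberg over all 17411 genes tested, with a threshold of 0.05. CPM used TMM-scaled library sizes, and a fold against libraries at 0 used a floor of 3 counts over the group. Total counts of the knockout libraries after STZ were 106433964 to 126637768, so that the spread between 2 libraries sets the precision, and floors cover counting error only. Alternatives were other scalings, no filter, DESeq2 1.42.0, a replicate block, a GC offset (GC content known for 96.0% of tested genes), fewer libraries and each library left out. On the endocrine scale, library sizes were set by 17 granule genes. Among these 17 were Scg5 and Chgb of the granule list and Pcsk2 of the alpha-cell list.

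Named genes were the 15 largest gains and losses with a mean of at least 2 CPM, the 4 members of smallest adjusted p in each list described, fixed genes, and the 5 largest interactions each way. Some genes that this rule names are not reported here. Exceptions within a list were added after their values were seen. The genes and lists were chosen with earlier results of these data known.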

Additional observations from a re-analysis of the deposited data

Results flagged for a closer look

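By edgeR's interaction test the change between 24 h and 4 wk after STZ differed between the genotypes in 110 of the 178 named genes. Of these 110, 102 had counts in every group and 8 had a group at 0 (adjusted p 7.78e-05 to 0.0497). Among all genes tested 8.79% had a positive and 5.09% a negative difference. Many named genes were picked by their knockout change or by the interaction itself, so their count does not measure how common differences are. Of the 102, 43 had a positive and 59 a negative difference. Each value is the knockout log2 change minus the control log2 change, so a positive one means a more positive change in knockout islets. Leaving out knockout library A or B at 24 h ended 34 or 31 of these calls, and leaving out control library A or B at 24 h 35 or 38. Groups held 2 libraries, too few for a test of single outlying libraries.

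Among beta-cell genes the difference was 1.42 for Iapp, 1.80 for Slc2a2, 2.06 for G6pc2, 1.35 for Trpm5, 0.82 for Ucn3 and 0.52 for Glp1r. Scaled on endocrine genes, the calls of Iapp (0.30, adjusted p = 0.124) and Trpm5 (0.23, adjusted p = 0.267) were lost. On that scale Ucn3 and Glp1r turned negative (-0.31, adjusted p = 0.367, and -0.61, adjusted p = 0.0252). With DESeq2's size factors the calls of Ucn3 and Glp1r were lost (adjusted p = 0.0588 and 0.0910). For the glucose-responsive genes Pklr and Thrsp the difference was 1.93 and -0.86. Among granule, alpha-cell and delta-cell genes it was 1.5 for Scg5, 1.18 for Ptprn2, 1.06 for Cacna1d, 1.04 for Chgb, 1.38 for Pcsk2, 1.53 for Gcg, 0.76 for Peg3, -1.05 for Gc, 1.29 for Sst and 1.39 for Ghsr. Of the genes tied to dedifferentiation, Neurog3 differed by 1.63, Serpina7 by 2.47, Cxcl12 by -1.71 and Igfbp4 by -0.85. For the clock genes and the transgene-sharing Esr1 the values were -0.57 for Arntl, 0.91 for Bhlhe41 and 2.46 for Esr1. The call of Arntl was lost with total-count scaling and with the replicate block (adjusted p = 0.109 and 0.0684). That of Bhlhe41 was lost with DESeq2's size factors and with the block (adjusted p = 0.0664 and 0.0536).

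Respiratory chain genes differed by 0.95 for Sdhd, 0.52 for Sdha, 0.66 for Uqcrfs1 and 0.69 for Atp5o. Antioxidant genes gave 1.05 for Txn1, 0.63 for Srxn1, 1.20 for Gpx3 and -2.85 for Hmox1. The glycolytic genes Pfkp and Aldoc had 1.33 and 1.75. Among p53 and folding stress genes the differences were -1.17 for Cdkn1a, -1.75 for Aen, 0.93 for Sesn1, -0.74 for Calr, -1.24 for Creld2, -1.20 for Hspb8 and -0.60 for Hsp90ab1. For immediate early and replication genes they were -0.97 for Klf2, 2.31 for Klf4, 1.04 for Klf6, -1.20 for Mcm3, -0.91 for Mcm4 and -1.06 for Uhrf1. Of 39 DNA replication and mitosis genes, 1 had a positive and 4 a negative difference, and 34 did not pass (median difference 0.03). The median change of that list was -0.65 in knockout and -0.57 in control islets.

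Macrophage genes differed by -1.60 for Lyz2, -1.59 for Adgre1, -2.11 for Cd163, -3.49 for Marco, 1.89 for Lgals3 and 3.70 for Lyz1. Lymphocyte, neutrophil and lymph node genes gave -5.49 for Ms4a1, -3.12 for Cd79b, -2.47 for S100a9, -6.44 for Cxcl13, -5.14 for Cr2, -3.26 for Ccl19 and -4.86 for Fcer2a. The value of Fcer2a was 0.14 without control library B at 4 wk, and that of Cr2 -0.66 (adjusted p = 0.847) without control library A at 4 wk. Genes of MHC class I and II gave -0.95 for H2-M3, -0.98 for H2-Q4, -2.12 for Nlrc5, -1.23 for H2-Aa, -3.35 for H2-Ob and -2.03 for Ciita. NF-kB and interferon genes gave -2.23 for Vcam1, -1.5 for Icam1, -1.79 for Nfkbie, -1.21 for Tnfrsf1b, -1.69 for Bst2, -0.87 for Gbp3 and -1.09 for Gbp7. The acute phase genes C3 and Serpina3n had -1.1 and -1.02.

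Exocrine genes differed by -4.08 for Prss3, -2.66 for Prss1, -1.40 for Try4, -1.66 for Try5, -1.42 for Reg2 and 1.07 for Reg3g. Of 27 stellate cell and matrix genes 7 had a positive and 2 a negative difference, and the named ones are the 2 negative. Matrix and duct genes gave -0.61 for Vim, -1.47 for Postn, 1.87 for Epcam and 3.14 for Cftr. The endothelial genes Pecam1 and Cdh5 had -1.0 and -1.13, and the receptor genes Egfr and Tgfbr2 had -1.83 and -0.99. Intestine and liver genes gave 2.35 for Slc5a1, 3.97 for Anpep, 3.26 for Vil1, -4.76 for Sis, 2.70 for Apoa1, 6.05 for Xpnpep2 and -10.14 for S100g. Of the 20 genes of the intestinal list 9 had a positive and 2 a negative difference. Sis itself rose in knockout islets (log2 fold change 6.62), so its negative value means a larger fitted rise in controls. Other named genes were Dpcr1 at -6.89, Dsc3 at -6.27, Sema3a at -4.94, Atp6v0c at -6.32 and its overlapping copy Atp6v0c-ps2 at 9.53. Reads of these last 2 cannot be told apart with certainty, and neither value is read as a change, though both are counted in the 102. The value of Sis was -9.10 without control library A at 24 h.

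In 8 genes 1 of the groups had no count, so that the fitted difference depends on the prior count and is no bound. These were Clca3b, a chloride channel regulator of gut, at 9.80, Itln1 at 9.37, the chemokine gene Ccl24 at 7.58, Gast at 7.26, the chemokine receptor gene Cxcr5 at -10.58, H2-Eb2 at -10.11, Tmprss15 at -9.23 and the alcohol dehydrogenase gene Adh6a at -8.53. Clca3b had 10.9 and 11.9 CPM at 4 wk and 7.50 and 7.86 CPM at 24 h in knockout islets, against 0 and 0 CPM at 4 wk and 0.728 and 0.577 CPM at 24 h in controls. Adh6a had 307 and 265 CPM at 4 wk and 9.76 and 8.86 CPM at 24 h in knockout islets, against 13.0 and 11.8 CPM at 4 wk and 0 and 0 CPM at 24 h in controls.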

How the results depend on the processing

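Scaling on 17 endocrine genes moved the knockout and interaction counts furthest. It called 12772 genes in knockout islets, 9373 in the interaction and 9776 against vehicle, and it reversed named genes whose rise was smaller than the shift of the scale. In knockout islets the log2 values became Aldoc -0.00096, Arntl -0.96, Atp5o -0.69, Bhlhe41 -0.31, Chgb -0.067, Clca3b -0.72, Cry1 -0.44 and Dbp -1.02. They became Eno2 -0.48, Ero1lb -0.35, Esr1 -0.058, Flt1 -0.63, Glp1r -0.43, Gpx3 -0.24, Ifit1 -0.65 and Klf6 -0.75. They became Lgals3 -0.27, Peg3 -0.24, Per2 -0.73, Pgam1 -0.79, Sdha -0.77, Sdhd -0.21 and Sesn1 -0.33. They became Srxn1 -0.36, Trpm5 -0.063, Txn1 -0.24, Ucn3 -0.32 and Uqcrfs1 -0.66. In the interaction they became Atp5o -0.44, Bhlhe41 -0.21, Cacna1d -0.061, Chgb -0.080, Glp1r -0.61, Klf6 -0.075, Peg3 -0.36 and Reg3g -0.050. They became Sdha -0.60, Sdhd -0.17, Sesn1 -0.19, Srxn1 -0.49, Txn1 -0.076, Ucn3 -0.31 and Uqcrfs1 -0.46 there. Interaction calls were lost there, with values of the same sign, for Iapp 0.30, Trpm5 0.23, Pcsk2 0.25, Ptprn2 0.057, Sst 0.16, Ghsr 0.27, Neurog3 0.50, Gpx3 0.075, Pfkp 0.20 and Aldoc 0.62. In knockout islets 14 named calls were lost in this way, those of Gcg, Ins1, Ins2, Npas2, Cacna1d, Pcsk2, Ptprn2, Sst, Ghsr, Pfkp, Prlr, Apoa1, Gzmb and Lyz1. The interaction of Fcer2a ranged from -6.22 to 0.14 with 1 library left out, and was 0.14 without control library B at 4 wk. Using only the libraries of the groups compared gave 4069 genes in knockout islets and 2979 against vehicle, and fits of fewer libraries have fewer degrees of freedom. It ended 15 named calls in knockout islets, those of Arntl, Atp5o, Calr, Ciart, Creld2, Eno2, Gast, Hsp90ab1, Ifit1, Ins2, Klf6, Per2, Pgam1, Sdha and Uqcrfs1 (adjusted p from 0.0575 to 0.347), and 13 in the interaction. The interactions of Itln1 (5.34 without control library B at 24 h) and Cxcr5 (-5.52 without control library A at 4 wk) each rested on 1 library. The DESeq2 Wald test gave 1759 genes in controls and 3707 in the interaction. A GC offset gave 9079 genes in knockout islets, 2839 in controls, 5835 in the interaction and 11293 against vehicle. With the replicate block as well these counts were 8805, 2646, 5584 and 11152, and the cause was not tested. Leaving out 1 library gave 3891 to 6435 genes in knockout islets, 494 to 610 in controls, 1187 to 2666 in the interaction and 4531 to 6756 against vehicle. Letters A and B marked no shared batch in the labels, although same-letter deviations correlated across 12502 genes (0.51 between knockout times, 0.30 between control times and -0.73 between knockout 4 wk and vehicle). With the letters as a replicate block 5715 genes were called in knockout islets, 840 in controls, 2037 in the interaction and 5752 against vehicle, and with the letters crossed in knockout vehicle, chosen after seeing the data, 7203, 1193, 3312 and 7297. The block ended the call of 3 named genes in knockout islets and of 13 in the interaction. Over counts outside the acinar list, 69 shares of marker lists moved by more than their spread and 5 did not. DESeq2 size factors, total-count scaling and no filter on low counts kept all 4 counts of called genes within 1.5 times. Depth limits low genes most, and with 2 libraries a group the spread rests on few degrees of freedom.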

Other observations

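Other lists are read against 20.2% of all genes tested that were higher and 15.5% that were lower at 4 wk in knockout islets. Endothelial genes fell in 8 of 17, rose in 2 and did not pass in 7 (median log2 fold change -0.51), and 4 to 11 fell with 1 library left out. Pecam1, an adhesion molecule between endothelial cells, had 73.7 and 83.4 CPM at 4 wk, against 169 and 171 CPM at 24 h (log2 fold change -1.11, SE 0.094, adjusted p = 4.55e-05). Cdh5, the cadherin of endothelial junctions, had 27.6 and 34.0 CPM at 4 wk, against 78.5 and 82.9 CPM at 24 h (log2 fold change -1.39, SE 0.12, adjusted p = 6.11e-05), and the vascular phosphatase Ptprb changed by -0.69 (adjusted p = 6.52e-04). Flt1, a receptor of VEGF, rose with 75 and 77.6 CPM at 4 wk, against 47.9 and 48.9 CPM at 24 h (adjusted p = 4.44e-04, and -0.63 on the endocrine scale). Of 16 heat shock genes 8 fell and 8 did not pass (median -0.53), and 5 fell without either library at 24 h. The chaperone genes Hspb8 and Hspa1b changed by -1.72 and -2.48 (adjusted p = 1.29e-05 and 1.67e-04), and Hspa8 and Hsp90ab1 by -0.53 and -0.52 (adjusted p = 0.00329 and 0.00334). In MHC class I and antigen processing 4 genes fell, 1 rose and 13 did not pass of 18 (median -0.59), and 2 to 8 fell with 1 library left out. These included the class I genes H2-Q4 and H2-M3, with changes of -1.1 and -0.71 (adjusted p = 7.68e-04 and 0.0109). Nlrc5, the activator of the class, and H2-Q7 changed by -2.38 and -2.18 (adjusted p = 8.26e-04 and 0.0125). H2-Q genes are close relatives, and the division of reads among them is uncertain.

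Glycolytic genes rose in 6 of 16, fell in 1 and did not pass in 9 (median 0.54, and -0.74 on the endocrine scale), and 3 rose without either library at 24 h. Pfkp, a phosphofructokinase, had 80.8 and 86.4 CPM at 4 wk, against 28.7 and 36.1 CPM at 24 h (log2 fold change 1.37, SE 0.18, adjusted p = 5.92e-04). The aldolase gene Aldoc, the enolase gene Eno2 and the mutase gene Pgam1 rose by 1.28, 0.80 and 0.50 (adjusted p = 0.00419, 0.0119 and 0.00163), and were -0.00096, -0.48 and -0.79 on the endocrine scale. Of 10 genes that the glucose-sensing factor ChREBP is known to drive, 4 rose and 2 fell (median 0.29, and -0.99 on the endocrine scale). Pklr, the pyruvate kinase of liver and beta cells, had 88.3 and 106 CPM at 4 wk, against 27.9 and 28.0 CPM at 24 h (log2 fold change 1.80, SE 0.12, adjusted p = 1.34e-05). Thrsp, a regulator of lipid synthesis, had 8.0 and 9.87 CPM at 4 wk, against 30.2 and 31.8 CPM at 24 h (log2 fold change -1.79, SE 0.18, adjusted p = 1.08e-04), while G6pc, the glucose-6-phosphatase of liver, had 27.8 and 25.3 CPM at 4 wk, against 87.6 and 78.2 CPM at 24 h (log2 fold change -1.64, SE 0.18, adjusted p = 2.15e-04). Among 9 delta, PP and epsilon cell genes 3 rose and 2 fell (median 0.81, and -0.48 on the endocrine scale). Besides Sst, the ghrelin receptor gene Ghsr rose by 1.52, while Rbp4, a retinol carrier made in bulk by liver, and the delta-cell factor Hhex changed by -1.47 and -1.02 (adjusted p = 0.00106, 6.07e-05 and 0.00192). Of 14 growth and hormone receptors 4 rose and 2 fell, shares close to those of all genes (median 0.17, and -1.12 on the endocrine scale). Those that fell were Egfr and Tgfbr2, with changes of -1.94 and -1.47 (adjusted p = 8.43e-06 and 9.51e-06), and the prolactin receptor gene Prlr rose by 1.64 (adjusted p = 0.00106).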
